A study of Mus musculus with 6 samples.

Results

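Collagen chains, the subunits of the most abundant proteins of the extracellular matrix, were followed across 6 RNA sequencing libraries of cultured brown fat cells. The chains were taken as every row of the count table whose gene symbol has the form of a collagen alpha chain (Col, a type number, the letter a and a chain number), which gave 44 of 46095 rows. A further row with a similar symbol, Col4a3bp, codes for a lipid transfer protein and was not included. The cells were induced brown adipocytes from C57BL/6 mice 5 weeks old, grown out of the non-adipocyte fraction of digested brown adipose tissue and differentiated for 8 days. Both groups received the same treatment, 2 days of insulin, dexamethasone, rosiglitazone, triiodothyronine and IBMX followed by 6 days of insulin, rosiglitazone and triiodothyronine. There were 3 libraries from U-IRX3ov mice, a genotype named for overexpression of the homeobox gene IRX3 whose libraries are titled KI, and 3 libraries from control mice. The sources used here do not give the construct, what drives it, the genotype of the controls beyond that word, or whether replicate libraries stem from separate animals or cultures. They also do not say what the word combined in the library descriptions refers to. The p-values therefore measure the spread between these libraries, which may be technical.

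A collagen molecule is a triple helix of 3 alpha chains, each built from repeats in which glycine recurs at a fixed step. Fibrillar collagens (types I, II, III, V, XI, XXIV and XXVII) pack into the cross-banded fibrils that give tissue its tensile strength. Type IV forms the sheet-like network of basement membranes, which surround every fat cell, and type VI forms beaded filaments between fibrils and basement membranes. FACIT collagens sit on the surface of fibrils, and the remaining types form short-chain networks, anchoring fibrils or transmembrane and basement membrane zone proteins. In adipose tissue the stromal cells make most of the fibrillar collagen, and preadipocytes change from a fibril-rich matrix to a basement membrane as they differentiate.

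Most of the abundant collagen chains were lower in U-IRX3ov than in control cells, and 2 fibrillar chains were higher. Of the 44 chains, 30 had enough counts to be tested, and of these 20 fell and 2 rose (edgeR, adjusted p under 0.05). Among all 14757 genes tested 21.1% fell and 20.2% rose, 3120 and 2978 genes. When libraries were scaled by their totals alone, which moves the median log2 fold change of all genes to -0.10, these counts were 4670 and 1935, while the chains that fell and rose were still 20 and 2. The 10 chains with a mean of at least 1000 CPM (counts per 1000000 counts of the library, scaled by TMM) all fell. Among the 87 genes of the table at that level, which include these chains, 41.4% fell and 49.4% rose. The median log2 fold change was -0.34 over the tested chains and -0.005 over all genes tested. In 20 tested chains every U-IRX3ov library lay below every control library in CPM, as in 25.9% of all genes tested. Counts of the 44 chains together made up 1.66% ± 0.05 of all counts in U-IRX3ov and 2.38% ± 0.02 in control libraries (SD, n = 3 each), and the libraries of the groups did not overlap. Mitochondrial mRNAs took 7.50% ± 0.24 in U-IRX3ov and 5.45% ± 0.27 in control libraries of all counts, and without them the collagen share was 1.79% ± 0.049 in U-IRX3ov and 2.51% ± 0.021 in control libraries. The two-sided exact permutation p was 0.1 for each of these shares, which is the smallest that 3 libraries a side allow. In RNA from whole cultures, fewer cells of a type and less collagen RNA per cell cannot be told apart. Of the 22 chains that passed, 15 kept their direction and passed under all 16 alternative settings. The other 7 (Col4a1, Col5a3, Col6a1, Col6a2, Col6a3, Col15a1 and Col16a1) did not pass a test against a change of 1.2-fold.

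**Figure D1:**
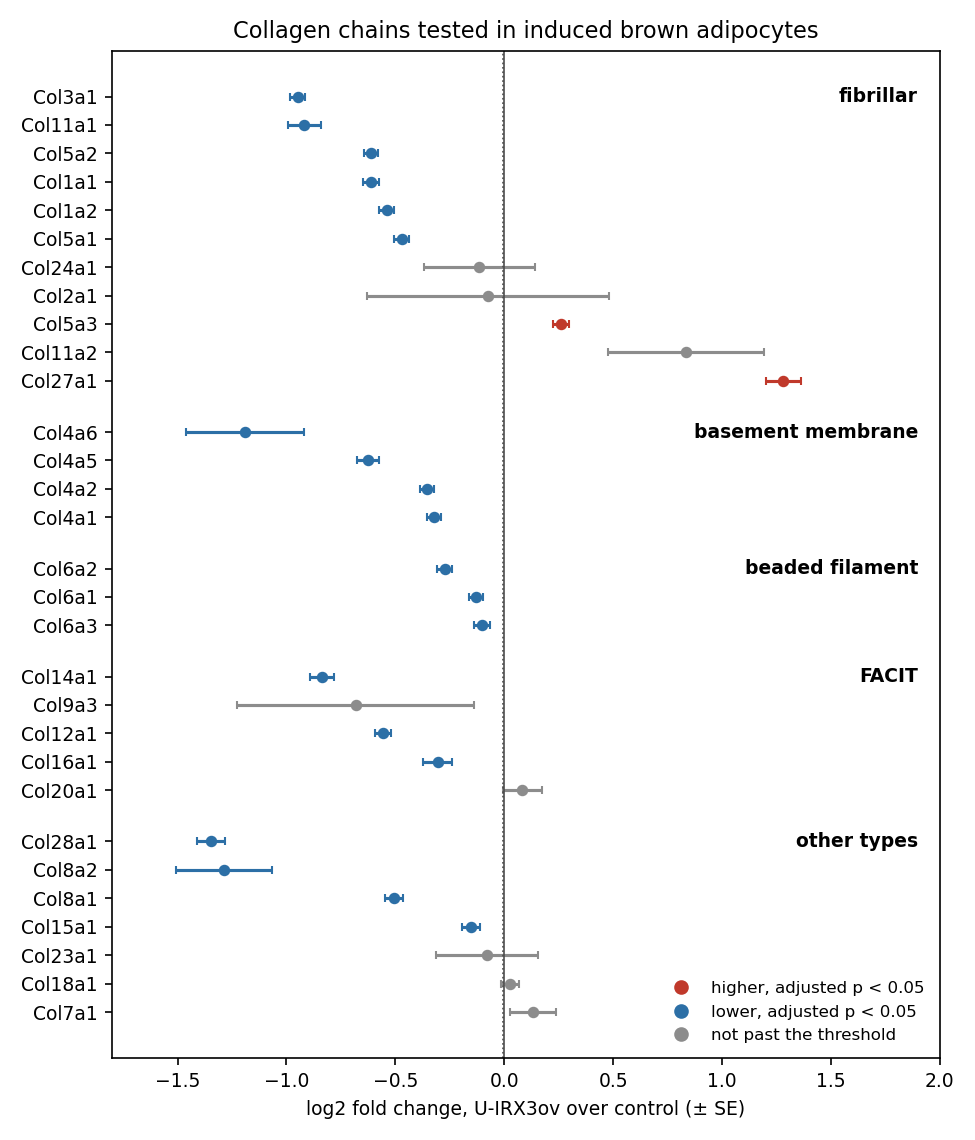
Log2 fold change of the 30 tested collagen chains (horizontal axis, U-IRX3ov over control, bars are standard errors), grouped by collagen type, with the median of all genes as a dotted line. Col27a1 and Col5a3 lie to the right of 0 among the fibrillar chains, with Col11a2, which did not pass, between them, while the chains of every other type that passed lie to the left.

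Library totals ran from 20094799 to 26755870 counts. Irx3 itself had 6.27, 6.31 and 5.89 CPM in U-IRX3ov and 4.78, 5.42 and 5.12 CPM in control libraries, a difference that did not pass the test (log2 fold change 0.27 ± 0.13 SE, adjusted p = 0.112). Whether its counts include transcripts of the construct is not known. All 7 brown adipocyte markers examined (such as Ucp1 and Cidea) and 9 of 10 general adipocyte markers were higher in U-IRX3ov cells. Of all genes tested 21.1% fell and 20.2% rose, the background for each marker list in this paragraph. The summed level of the general markers was 40002 to 41516 CPM in U-IRX3ov and 31996 to 32691 CPM in control libraries. Of 13 preadipocyte and fibroblast markers 10 of 11 tested fell, with a summed level of 1526 to 1674 CPM in U-IRX3ov and 2586 to 2676 CPM in control libraries. All 10 leukocyte markers fell, with a summed level of 146 to 219 CPM in U-IRX3ov and 449.8 to 554 CPM in control libraries. Of 11 pericyte and smooth muscle markers 6 of 10 tested fell and 2 rose, with a summed level of 2929 to 3247 CPM in U-IRX3ov and 4648 to 4888 CPM in control libraries. None of the markers of those 4 cell types was at 0 in all libraries. Endothelial markers rose in 4 of 7 tested and fell in 0, at 39.6 to 44.7 CPM in U-IRX3ov and 19.7 to 23.3 CPM in control libraries, with Cldn5 at 0 in all libraries. Schwann cell markers rose in 2 of 3 tested, at 32.5 to 35.0 CPM in U-IRX3ov and 19.9 to 23.6 CPM in control libraries. Chondrocyte markers fell in both members tested, at 21.2 to 23.9 CPM in U-IRX3ov and 39.9 to 42.7 CPM in control libraries, with Acan under 0.2 CPM in every library and Matn1 at 0. Mesothelial markers (1 of 2 tested higher) and muscle precursor markers (0 tested, Myf5 at 0) summed to at most 1.69 and 0.67 CPM in any library. The fibroblast, leukocyte, pericyte and chondrocyte lists thus went in the direction of most collagens and the adipocyte, endothelial and Schwann cell lists in the other, and their part in the collagen results was not tested.

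Among fibrillar collagens 6 of 11 tested chains fell and 2 rose, with a median log2 fold change of -0.47. Of all genes tested 21.1% fell and 20.2% rose, the background for each collagen type that follows. The 2 of 11 that rose lie near that share. In the same libraries the summed preadipocyte and fibroblast markers were lower too, as given above. Col1a1, the major chain of type I collagen, had 2420.2, 2209 and 2193 CPM in U-IRX3ov libraries 1, 2 and 3, against 3477, 3522 and 3421 CPM in control libraries 1, 2 and 3 (log2 fold change -0.61 ± 0.04 SE, adjusted p = 2.15e-13). Its partner Col1a2 stood at 1772, 1718 and 1680.4 CPM in U-IRX3ov and 2559, 2478 and 2477 CPM in control libraries (-0.54 ± 0.03, adjusted p = 3.88e-13). In both chains U-IRX3ov library 1 was the highest of its group and still far below the lowest control library. Col3a1, the type III chain of pliable fibrils, reached 1070.1, 1029.9 and 1021 CPM in U-IRX3ov libraries, against 2057, 1982 and 1986 CPM in control libraries. Its log2 fold change of -0.95 ± 0.03 was the most negative of the 10 chains above 1000 CPM and had the smallest adjusted p of all chains (6.05e-18).

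Type V collagen controls the diameter of type I fibrils, and its 3 chains did not move together. Col5a1 fell to 968, 942 and 913 CPM in U-IRX3ov libraries, against 1309.9, 1328 and 1275 CPM in control libraries (-0.47 ± 0.03, adjusted p = 7.51e-12). Col5a2, with 952, 929 and 927 CPM in U-IRX3ov and 1438, 1415 and 1437 CPM in control libraries, fell too (-0.61 ± 0.03, adjusted p = 1.52e-14). The third chain, Col5a3, which replaces other chains in a tissue-restricted form of type V, was higher instead. It had 890.0, 966 and 894 CPM in U-IRX3ov libraries, all above the 763, 761 and 772 CPM of control libraries (0.26 ± 0.04, adjusted p = 9.94e-07). The 3 control libraries of Col5a3 lay within a narrow band, and U-IRX3ov library 2 was the highest.

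Col27a1 had the largest rise of the chains. This fibrillar chain, known best from cartilage, had 31.6, 39.4 and 34.5 CPM in U-IRX3ov libraries, against 14.9, 13.4 and 15.0 CPM in control libraries. That was a 2.43-fold difference (log2 1.28 ± 0.08, adjusted p = 4.77e-13) with no overlap of the groups. Col11a1, a type XI chain that seeds fibrils with type II or type V, moved the other way at a similar level. Its values were 21.2, 19.9 and 16.8 CPM in U-IRX3ov and 38.9, 35.9 and 35.2 CPM in control libraries (-0.92 ± 0.08, adjusted p = 1.30e-10). The chondrocyte markers Comp and Sox9 fell in the same libraries, while Acan was near 0 and Matn1 at 0, and their part was not tested.

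The other 3 fibrillar chains did not pass the test. Col11a2 had raw counts of 23, 26 and 29 in U-IRX3ov and 23, 21 and 11 in control libraries. In CPM its groups did not overlap (log2 0.83 ± 0.36, adjusted p = 0.0638), and without U-IRX3ov library 1 it passed (adjusted p = 0.0378). Raw counts in library 1 of each group were equal, and the U-IRX3ov library had the smaller scaled size. Col24a1 had 1.65, 1.59 and 1.96 CPM in U-IRX3ov and 2.23, 2.06 and 1.34 CPM in control libraries, with overlapping groups (-0.11 ± 0.25, adjusted p = 0.751). Col2a1, the main cartilage collagen, had raw counts of 6, 8 and 8 in U-IRX3ov and 8, 17 and 4 in control libraries (-0.07 ± 0.55, adjusted p = 0.927), and its direction changed under several alternatives.

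The promoters of the fibrillar chains that rose are shown because these chains went against the other fibrillar chains that passed. Each is the RefSeq window on build GRCm38.p6, the assembly of mm10, from 250 bases before to 50 after the start of transcription. Capitals mark matches, on either strand, to the CCAAT box (CCAAT) and the GC box (GGGCGG). The TATA box (TATAAA) and the palindrome ACANNTGT, a motif of Iroquois proteins known from the fruit fly, were searched too and had no match in these windows. Col5a3 lies on the minus strand at chr9:20815018-20815317 and Col27a1 on the plus strand at chr4:63215162-63215461. For Col27a1 the RefSeq start is base 63215412, while the gene starts at base 63214004 in GENCODE M21. Its window therefore lies inside the GENCODE gene, and the sequence before the GENCODE start is not shown.
Col5a3: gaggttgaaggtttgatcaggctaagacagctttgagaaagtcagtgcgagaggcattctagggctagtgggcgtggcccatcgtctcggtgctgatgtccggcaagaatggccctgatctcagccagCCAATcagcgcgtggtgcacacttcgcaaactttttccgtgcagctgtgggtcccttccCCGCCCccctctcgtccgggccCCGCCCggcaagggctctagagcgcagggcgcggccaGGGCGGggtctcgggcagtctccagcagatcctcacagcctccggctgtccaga
Col27a1: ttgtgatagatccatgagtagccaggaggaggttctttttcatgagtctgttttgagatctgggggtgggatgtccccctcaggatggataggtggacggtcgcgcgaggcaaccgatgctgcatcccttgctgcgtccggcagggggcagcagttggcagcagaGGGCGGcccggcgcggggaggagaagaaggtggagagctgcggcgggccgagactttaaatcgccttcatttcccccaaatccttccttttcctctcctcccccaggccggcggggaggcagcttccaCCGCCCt

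Basement membrane chains fell in all 4 of the tested members of 6, with a median log2 fold change of -0.49. Log2 fold changes were nearer 0 in the abundant pair than in the rarer one. Col4a1 and Col4a2, which assemble into the ubiquitous type IV trimer, fell by nearly the same amount. Col4a1 had 2773, 2824 and 2770.0 CPM in U-IRX3ov and 3424, 3562 and 3479 CPM in control libraries (-0.32 ± 0.03, adjusted p = 6.31e-09). Col4a2 had 1830.2, 1821 and 1803 CPM in U-IRX3ov and 2265, 2353 and 2353 CPM in control libraries (-0.35 ± 0.03, adjusted p = 1.04e-09). Col4a5, a chain of the trimers of kidney, lung and other specialised membranes, fell to 53.6, 50.3 and 49.2 CPM in U-IRX3ov libraries, against 80.9, 78.3 and 77.4 CPM in control libraries (-0.63 ± 0.05, adjusted p = 3.20e-11). Its neighbour Col4a6 was scarce, with raw counts of 21, 19 and 31 in U-IRX3ov and 71, 76 and 57 in control libraries. In CPM these did not overlap (-1.19 ± 0.27, adjusted p = 7.03e-04). Pericyte and smooth muscle markers were lower as a sum in the same U-IRX3ov libraries. Of 10 tested markers 6 fell and 2 rose, as given above. General adipocyte markers (9 of 10 higher) and endothelial markers (4 of 7 tested higher, 0 lower) went the other way. The part of these cell types in the type IV results was not tested. For the ratio of Col4a5 to Col4a1 counts, chosen after its values were seen, every U-IRX3ov library, 0.0178 to 0.0193, lay below every control library, 0.0220 to 0.0236.

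Chains of type IV are encoded in head-to-head pairs, so their starts face away from each other around a shared stretch of DNA. In the annotation the starts of Col4a1 (minus strand) and Col4a2 (plus strand) lie 21 bases apart on chromosome 8, and their first exons share bases. Col4a6 and Col4a5 start 1343 bases apart on chromosome X in RefSeq. Col4a4 and Col4a3 on chromosome 1 start 72 bases apart in GENCODE, and neither was tested. The windows of both tested pairs are shown, since the chains of each pair fell together. They are the minus strand of chr8:11312777-11313076 for Col4a1 and of chrX:141474027-141474326 for Col4a6. For Col4a2 and Col4a5 they are the plus strand of chr8:11312555-11312854 and chrX:141475169-141475468. Capitals mark the same motifs as above, again with no TATA box or Iroquois match, and the first pair of windows shares 78 bases.
Col4a1: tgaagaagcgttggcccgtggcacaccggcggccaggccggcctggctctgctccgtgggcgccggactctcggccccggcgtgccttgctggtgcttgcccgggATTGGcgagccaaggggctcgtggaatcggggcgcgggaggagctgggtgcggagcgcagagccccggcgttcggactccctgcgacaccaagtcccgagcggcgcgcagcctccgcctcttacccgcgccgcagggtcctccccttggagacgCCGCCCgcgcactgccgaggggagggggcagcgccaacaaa
Col4a2: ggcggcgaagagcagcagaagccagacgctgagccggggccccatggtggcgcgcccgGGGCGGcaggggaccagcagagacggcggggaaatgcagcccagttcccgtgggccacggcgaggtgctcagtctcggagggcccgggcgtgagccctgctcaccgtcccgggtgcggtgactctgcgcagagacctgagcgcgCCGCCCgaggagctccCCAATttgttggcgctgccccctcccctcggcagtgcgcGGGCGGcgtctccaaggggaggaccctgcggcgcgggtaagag
Col4a6: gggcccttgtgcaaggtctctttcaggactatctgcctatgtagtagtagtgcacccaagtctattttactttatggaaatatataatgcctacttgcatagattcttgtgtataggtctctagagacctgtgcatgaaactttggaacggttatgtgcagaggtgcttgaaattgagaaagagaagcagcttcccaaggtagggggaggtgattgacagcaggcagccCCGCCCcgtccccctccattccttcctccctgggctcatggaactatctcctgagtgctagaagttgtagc
Col4a5: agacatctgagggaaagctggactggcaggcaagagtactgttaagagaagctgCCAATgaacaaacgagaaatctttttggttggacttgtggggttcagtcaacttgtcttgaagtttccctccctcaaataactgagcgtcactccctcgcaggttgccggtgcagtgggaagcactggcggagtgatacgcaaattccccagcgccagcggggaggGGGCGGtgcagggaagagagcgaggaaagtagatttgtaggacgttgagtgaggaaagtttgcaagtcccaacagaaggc

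A single search of all promoters puts these matches in context. Of 32851 mouse windows 37.4% held a CCAAT box, 35.7% a GC box, 13.6% a TATA box and 7.38% the Iroquois palindrome. Windows were listed for 35 of the 44 chains, 38 windows in all, of which 13 held a CCAAT box, 23 a GC box, 5 a TATA box and 2 the palindrome. Among the 17 windows of 16 chains that fell, 6 held a CCAAT box and 12 a GC box. No window was listed for Col1a1, Col5a2, Col12a1 and Col14a1, which fell too. The only TATA box among them was in Col3a1, and the palindrome was found in Col3a1 and Col8a1. A match of letters is not a binding site, and its absence from a window says nothing about a factor.

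All 3 tested beaded filament chains fell, by little (median -0.13). Col6a1, Col6a2 and Col6a3 assemble in equal parts into type VI collagen, a major collagen of the matrix around fat cells. Col6a1 had 1007, 1023 and 979 CPM in U-IRX3ov and 1086, 1108 and 1098 CPM in control libraries (-0.13 ± 0.03, adjusted p = 0.00241). Col6a2 had 774, 784 and 732 CPM in U-IRX3ov and 918, 937 and 912 CPM in control libraries (-0.27 ± 0.03, adjusted p = 2.80e-07). For Col6a3, whose C-terminal fragment is the adipokine endotrophin, the values were 1038, 1083 and 979 CPM in U-IRX3ov and 1099, 1136 and 1091 CPM in control libraries (-0.10 ± 0.04, adjusted p = 0.0287). The Col6a3 groups lay close, with U-IRX3ov library 2 just under the lowest control library. It no longer passed without U-IRX3ov library 3 (log2 -0.06, adjusted p = 0.187), without control library 1 (adjusted p = 0.0586) and without control library 2 (adjusted p = 0.144). Its range of adjusted p over all alternatives was 9.23e-05 to 1. Col6a4, Col6a5 and Col6a6, alternative chains in a cluster on chromosome 9, had at most 13 counts in a library.

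FACIT collagens, which coat fibrils and link them to other matrix, fell in 3 of 5 tested members (median -0.56). Col12a1 was by far the most abundant, with 1056, 1026 and 963 CPM in U-IRX3ov and 1511, 1547 and 1424 CPM in control libraries (-0.56 ± 0.04, adjusted p = 3.90e-12). Col14a1 fell to 37.7, 34.4 and 36.8 CPM in U-IRX3ov libraries, against 66.5, 63.2 and 65.2 CPM in control libraries (-0.84 ± 0.06, adjusted p = 9.75e-13). Col16a1 had 32.1, 32.8 and 28.1 CPM in U-IRX3ov and 38.8, 39.3 and 37.1 CPM in control libraries (-0.31 ± 0.07, adjusted p = 4.25e-04). In all 3 chains every U-IRX3ov library lay below every control library, as in 25.9% of all genes tested. Col20a1, with 18.2, 18.3 and 17.0 CPM in U-IRX3ov and 14.7, 18.9 and 17.0 CPM in control libraries, did not pass (0.08 ± 0.09, adjusted p = 0.5), and scaled by library totals alone its log2 fold change was -0.01. Col9a3, a type IX chain of cartilage, had raw counts of 3, 10 and 9 in U-IRX3ov and 11, 8 and 26 in control libraries and did not pass (-0.68 ± 0.54, adjusted p = 0.341). Its log2 fold change was -0.03 without control library 3 and -0.19 without U-IRX3ov library 1.

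Of the remaining types 4 of 7 tested chains fell (median -0.15). Col28a1, a collagen known from Schwann cells of peripheral nerve, had the most negative log2 fold change of all chains. It stood at 33.1, 26.9 and 27.6 CPM in U-IRX3ov libraries, against 76.6, 72.1 and 75.3 CPM in control libraries (-1.35 ± 0.07, adjusted p = 9.08e-15). The Schwann cell markers Mbp and Sox10 rose in the same libraries, and their part was not tested. Short-chain Col8a1, of vascular and subendothelial matrix, fell to 156, 160.1 and 155 CPM in U-IRX3ov libraries, against 221, 235 and 212 CPM in control libraries (-0.51 ± 0.04, adjusted p = 4.50e-11). Its partner Col8a2 fell as well, at a far lower level (1.85, 1.49 and 1.14 CPM in U-IRX3ov and 3.36, 4.32 and 3.41 CPM in control libraries, -1.29 ± 0.22, adjusted p = 2.42e-05).

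The multiplexins Col15a1 and Col18a1 are basement membrane zone collagens that carry the antiangiogenic fragments restin and endostatin at their C-terminal ends. Col15a1 had 353, 401 and 355 CPM in U-IRX3ov and 405, 413 and 413 CPM in control libraries, and U-IRX3ov library 2 lay close to the controls (-0.15 ± 0.04, adjusted p = 0.00434). Col18a1 did not pass the test, with 111, 110.1 and 103 CPM in U-IRX3ov and 105, 106 and 108 CPM in control libraries and overlapping groups (0.03 ± 0.04, adjusted p = 0.638, and -0.07 when scaled by library totals alone). The anchoring fibril chain Col7a1 had 14.7, 11.3 and 12.8 CPM in U-IRX3ov and 10.8, 12.1 and 12.7 CPM in control libraries (0.13 ± 0.11, adjusted p = 0.337). The transmembrane chain Col23a1, at 2.11, 1.95 and 1.76 CPM in U-IRX3ov and 2.30, 1.64 and 2.23 CPM in control libraries, did not pass either (-0.08 ± 0.23, adjusted p = 0.813).

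**Figure D2:**
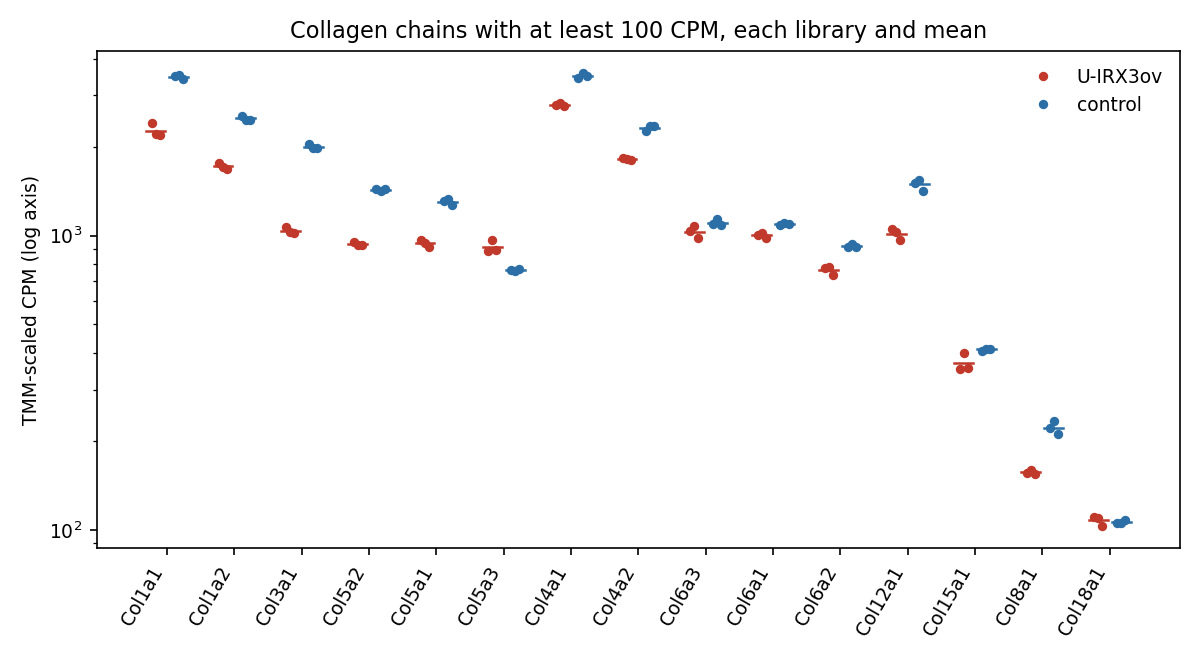
TMM-scaled CPM (log axis) of the 15 chains with a mean of at least 100 CPM, with each library as a point and group means as lines, U-IRX3ov in red to the left of control in blue. The groups are separate in each chain but Col18a1, and Col5a3 is the chain with U-IRX3ov above control. Among all genes tested, of any level, 25.9% had every U-IRX3ov library below every control library.

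Rare chains made up the rest of the family. Of the 44 chains 11 had under 10 counts in every library, and none of these was tested. They were Col10a1, Col13a1, Col17a1, Col19a1, Col22a1, Col25a1, Col26a1, Col6a5, Col6a6, Col9a1 and Col9a2. With Col4a3, Col4a4 and Col6a4, which reached at most 13 counts, they made up the 14 untested chains. These 14 chains held 94 raw counts in all U-IRX3ov and 163 in all control libraries. Over the 3 U-IRX3ov libraries, against the 3 control libraries, Col9a2 had 2 against 16 counts, Col4a3 had 1 against 13, Col22a1 had 1 against 11, and Col19a1 had 7 against 17. Col17a1 had 8 against 17, Col26a1 had 12 against 17, Col4a4 had 19 against 23, and Col6a4 had 19 against 21. Col10a1 had 14 against 15, Col25a1 had 2 against 5, Col9a1 had 0 against 2, Col6a5 had 2 against 2, Col6a6 had 3 against 2, and Col13a1 had 4 against 2. These are raw sums, and the control libraries together held more counts. Among the tested chains only Col2a1 and Col9a3 had under 10 counts in any library. The other 28 reached the filter on low counts in all 3 libraries of both groups.

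Divided by the length of the principal transcript, so that chains can be compared, type I and type IV led the family. Col4a1 had the highest level in U-IRX3ov cells, 419, 427 and 419 CPM per kilobase, ahead of Col1a1 with 408, 373 and 369.8. In control cells the order was reversed, with 586, 594 and 577 CPM per kilobase for Col1a1 and 518, 539 and 526 for Col4a1. In each group the libraries of these chains did not overlap. Col1a2 ranked 3 in both groups, at 322 ± 8.59 in U-IRX3ov and 468 ± 8.85 CPM per kilobase in control cells (mean ± SD, n = 3). Col3a1 ranked 7 in U-IRX3ov cells, at 187 ± 4.71 CPM per kilobase, and 4 in control cells, at 361 ± 7.50, where it did not differ beyond its spread from Col4a2 (360.3 ± 7.82). Col5a3 ranked 8 in U-IRX3ov cells, at 149.8 ± 6.97, and 11 in control cells, at 125 ± 0.998 CPM per kilobase. In control cells its neighbours in the order, Col12a1 (129.8 ± 5.53) and Col6a3 (123 ± 2.68), did not differ from it beyond their spread. In U-IRX3ov cells Col6a3 (115 ± 5.79) and Col5a1 (112 ± 3.31) did not differ beyond their spread. With all annotated exons joined as the length, an alternative chosen after the data were seen, Col4a1 and Col1a1 kept their ranks in both groups. Col1a2 then ranked 5 in U-IRX3ov and 6 in control cells, at 139 and 202 CPM per kilobase. Col3a1 ranked 8 in U-IRX3ov and 5 in control cells, at 106 and 205 CPM per kilobase, and Col5a3 ranked 6 in U-IRX3ov and 9 in control cells.

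Within the collagen counts, fibrillar chains took a smaller and beaded filament chains a larger share in U-IRX3ov than in control libraries. Of collagen counts, fibrillar chains took 46.1% ± 0.58 in U-IRX3ov and 50.2% ± 0.52 in control libraries (SD, n = 3 each). Basement membrane chains took 27.2% ± 0.48 in U-IRX3ov and 25.6% ± 0.44 in control libraries, and beaded filament chains 16.3% ± 0.34 in U-IRX3ov and 13.6% ± 0.10 in control libraries. FACIT chains took 6.42% ± 0.15 in U-IRX3ov and 7.02% ± 0.22 in control libraries and all others 3.97% ± 0.14 in U-IRX3ov and 3.62% ± 0.02 in control libraries. For each of the 5 types the libraries of the groups did not overlap, and the exact permutation p was 0.1, the smallest possible, also after Benjamini-Hochberg adjustment over the 5. These shares do not depend on how libraries were scaled. With counts per kilobase, fibrillar chains took 46.5% in U-IRX3ov and 51.0% in control libraries, and beaded filament chains took 19.7% in U-IRX3ov and 16.6% in control libraries.

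**Figure D3:**
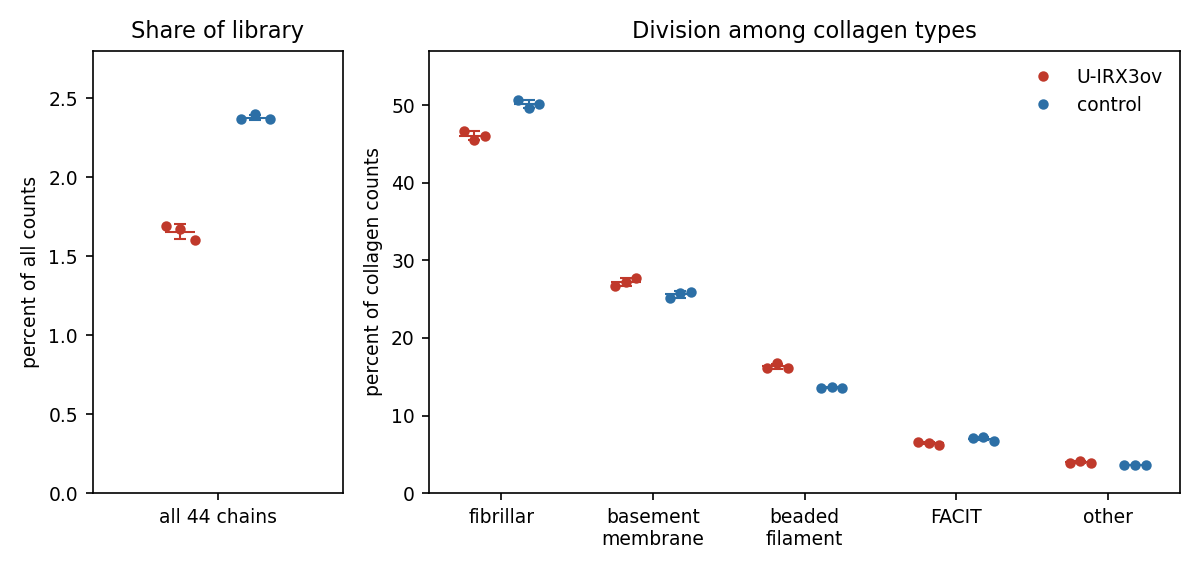
Left, counts of all 44 collagen chains as percent of all counts. Right, each collagen type as percent of collagen counts; points are libraries, bars mean ± SD, U-IRX3ov in red to the left of control in blue. Fibrillar chains sit lower and beaded filament chains higher in U-IRX3ov libraries.

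Ratios of raw counts within a library again need no scaling, but they are not divided by transcript length. Most compare chains of the same collagen type, while Col3a1 to Col1a1 and Col6a1 to Col1a1 compare chains of different types. Among the 6 ratios fixed for comparison 4 had groups that did not overlap, with an exact permutation p of 0.1 (two-sided, the smallest possible, adjusted p = 0.15 over the 6). The ratio of Col3a1 to Col1a1 counts was 0.458 ± 0.014 in U-IRX3ov and 0.578 ± 0.014 in control libraries. For Col5a1 to Col5a2 it was 1.01 ± 0.018 in U-IRX3ov and 0.912 ± 0.025 in control libraries, and for Col6a1 to Col6a2 1.31 ± 0.019 in U-IRX3ov and 1.19 ± 0.013 in control libraries. The ratio of Col4a1 to Col4a2, the head-to-head pair, was 1.53 ± 0.018 in U-IRX3ov and 1.50 ± 0.02 in control libraries. For Col1a1 to Col1a2 it was 1.32 ± 0.042 in U-IRX3ov and 1.39 ± 0.032 in control libraries, with overlapping groups (exact permutation p = 0.2, adjusted p = 0.24 over the 6). The ratio of Col6a3 to Col6a1 was 1.03 ± 0.029 in U-IRX3ov and 1.01 ± 0.016 in control libraries (exact permutation p = 0.4, adjusted p = 0.4). Of the ratios chosen after their values were seen, Col6a1 to Col1a1 was 0.442 ± 0.024 in U-IRX3ov and 0.316 ± 0.0046 in control libraries, and Col5a3 to Col5a1 was 0.975 ± 0.053 in U-IRX3ov and 0.587 ± 0.017 in control libraries. The 2 type V chains had nearly equal raw counts in U-IRX3ov libraries, while Col5a1 led in every control library. Divided by transcript length, Col5a3 led in U-IRX3ov cells, at 149.8 ± 6.97 against 112 ± 3.31 CPM per kilobase for Col5a1. In control cells Col5a1 led, at 155 ± 3.17 against 125 ± 0.998 CPM per kilobase for Col5a3.

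**Figure D4:**
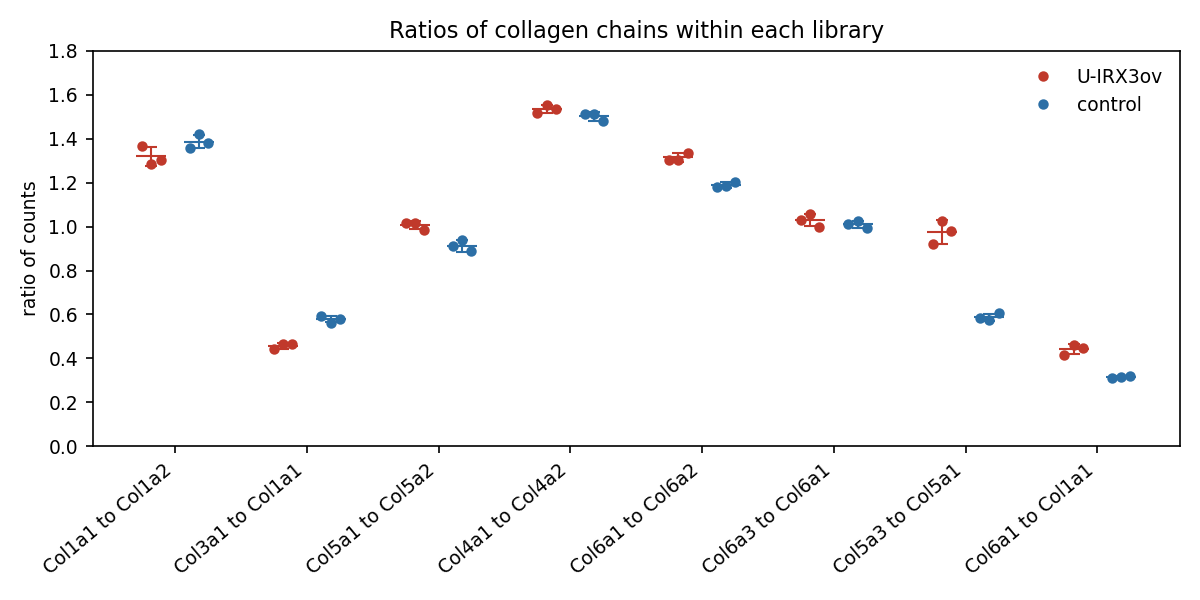
Ratio of raw counts of 2 chains in each library (points, with mean ± SD), U-IRX3ov in red to the left of control in blue. Col4a1 to Col4a2 stays near 1.5 in both groups, while Col5a3 to Col5a1 is 0.97 in U-IRX3ov and 0.59 in control libraries on average.

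Other chains are neighbours in the genome too. Col3a1 and Col5a2 lie tail to tail on chromosome 1, 24614 bases apart with no coding gene between them, and both fell. Col6a2 and Col6a1 lie in the same direction on chromosome 10, 85161 bases apart with no coding gene between them, and both fell too. Exons of 13 chains share bases with another annotated gene, namely Col3a1, Col4a1, Col4a2, Col5a1, Col7a1, Col9a3, Col15a1, Col20a1 and 5 untested chains. Whether counting used the strand is not known, so counts of these chains may hold reads of the other gene. On build mm10 Col1a1 spans chr11:94936224-94953042, Col3a1 chr1:45311538-45349706, Col28a1 chr6:7997808-8192617 and Col6a3 chr1:90765923-90843971.

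Genes that modify, export and assemble collagens were read from 6 lists with 73 members, none of them a collagen chain. Of 66 tested 50 fell and 3 rose, beside 21.1% lower and 20.2% higher of all genes tested, the background for each list that follows. The lists were chosen with earlier results of these data known, so these counts are not an independent test. In a test against a 1.2-fold change 38 fell and 1 rose. The summed preadipocyte and fibroblast markers given above were lower in the same U-IRX3ov libraries, and their part was not tested. Among the genes named from these lists, exons of Plod3, Fkbp10, Pcolce, Nid2 and Itga1 share bases with a coding gene, as do those of 5 members not named further, Ppib, Colgalt1, Loxl3, Aspn and Itga10. In the list of chain modification, folding and export 13 of 19 tested genes fell and 1 rose (median log2 fold change -0.39, beside -0.005 for all genes tested). Fkbp10, a prolyl isomerase of collagen folding, fell by 0.62 on the log2 scale, to 108 ± 6.20 CPM in U-IRX3ov, against 167 ± 4.32 CPM in control cells (SD, n = 3). The collagen chaperone Serpinh1 (HSP47) had 779 ± 33.4 CPM in U-IRX3ov and 1104 ± 14.4 CPM in control cells (-0.50 ± 0.04, adjusted p = 3.90e-12). P4hb, the beta subunit of prolyl 4-hydroxylase (-0.42 ± 0.03), and the lysyl hydroxylase Plod3 (-0.43 ± 0.04) fell too. The lysyl hydroxylase Plod1 was the member that rose, with 78.0, 77.3 and 78.6 CPM in U-IRX3ov and 56.8, 55.1 and 52.8 CPM in control libraries (0.51 ± 0.05, adjusted p = 1.04e-09). The catalytic subunits P4ha1 (0.06 ± 0.04, adjusted p = 0.171) and P4ha2 (0.02 ± 0.04, 0.745), the channel Tmem38b (0.09 ± 0.05, 0.179) and the hydroxylase P3h2 (0.11 ± 0.31, 0.808) did not pass.

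Genes of propeptide removal and cross-linking fell in 10 of 12 tested and rose in 0 (median -0.56). Lox, the lysyl oxidase that starts cross-links, had 2397, 2303 and 2440.4 CPM in U-IRX3ov and 3983, 3966 and 3682 CPM in control libraries (-0.70 ± 0.04, adjusted p = 9.16e-15). The propeptide proteases Adamts2 (-0.77 ± 0.04) and Bmp1 (-0.79 ± 0.05) fell, as did Pcolce (-0.78 ± 0.04), the enhancer of Bmp1 on procollagen. All 9 tested small leucine-rich proteoglycans that bind fibrils fell (median -0.61). Fmod, which binds type I collagen, had 39.7, 34.8 and 37.5 CPM in U-IRX3ov and 82.3, 74.9 and 78.7 CPM in control libraries (-1.07 ± 0.06, adjusted p = 9.07e-15). Bgn (-0.56 ± 0.04), Dcn (-0.61 ± 0.04) and Lum (-1.11 ± 0.12) were the other members with the smallest p-values, and Kera was at 0.

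Partners of type IV collagen in the basement membrane fell in 8 of 12 tested and rose in 2 (median -0.33). The 2 of 12 that rose lie near the share of all genes tested that rose, 20.2%. Lamb2 (-0.64 ± 0.04), Nid2 (-0.66 ± 0.05) and Lama5 (-0.96 ± 0.07) fell, and so did Pxdn (-0.35 ± 0.04), the peroxidase that forms the sulfilimine cross-links of type IV. The laminin of fat cells and vessels is made of the chains Lama4, Lamb1 and Lamc1, and these did not go one way. Lamc1 fell, with 517, 517 and 517 CPM in U-IRX3ov and 559, 563 and 548 CPM in control libraries (-0.11 ± 0.03, adjusted p = 0.0108), while Lamb1 and Lama4 rose. Without control library 2 Lamc1 did not pass (adjusted p = 0.0512). Lamb1 had 535, 555 and 538 CPM in U-IRX3ov and 499, 507 and 508 CPM in control libraries (0.10 ± 0.03, adjusted p = 0.0139). Lama4 had 401, 423 and 414 CPM in U-IRX3ov and 391, 383 and 383 CPM in control libraries (0.10 ± 0.03, adjusted p = 0.027). Neither Lamb1 nor Lama4 passed with libraries scaled by totals alone (adjusted p = 0.87 for Lamb1 and 0.999 for Lama4) or without U-IRX3ov library 2 (adjusted p = 0.0766 and 0.123). Lamb1 was also lost without control library 1 (adjusted p = 0.0547), and Lama4 without U-IRX3ov library 3 (0.0622), without control library 2 (0.0756) and with upper quartile scaling (0.067). Endothelial markers were higher in the same U-IRX3ov libraries, as given above, and their part was not tested.

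Collagen receptors fell in 7 of 9 tested and rose in 0 (median -0.53). Mrc2, which takes up cleaved collagen, fell to 129.8, 125 and 121 CPM in U-IRX3ov libraries, against 212, 212 and 203 CPM in control libraries (-0.73 ± 0.04, adjusted p = 1.35e-14). Itgb1 (-0.53 ± 0.03), the collagen-binding integrin chain Itga1 (-0.55 ± 0.06) and the kinase Ddr2 (-0.56 ± 0.05) fell with it. Itga2 did not pass (0.53 ± 0.42, adjusted p = 0.338), and the platelet receptor Gp6 was at 0. Of 5 tested collagen-degrading proteases 3 fell (median -0.78). These were Mmp14 (-0.78 ± 0.04), Mmp2 (-1.24 ± 0.06) and the cathepsin Ctsk (-1.11 ± 0.09). Mmp13 (-0.53 ± 0.31, adjusted p = 0.171) and Mmp9 (-0.42 ± 0.34, 0.354) did not pass, and Mmp1a was at 0.

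**Figure D5:**
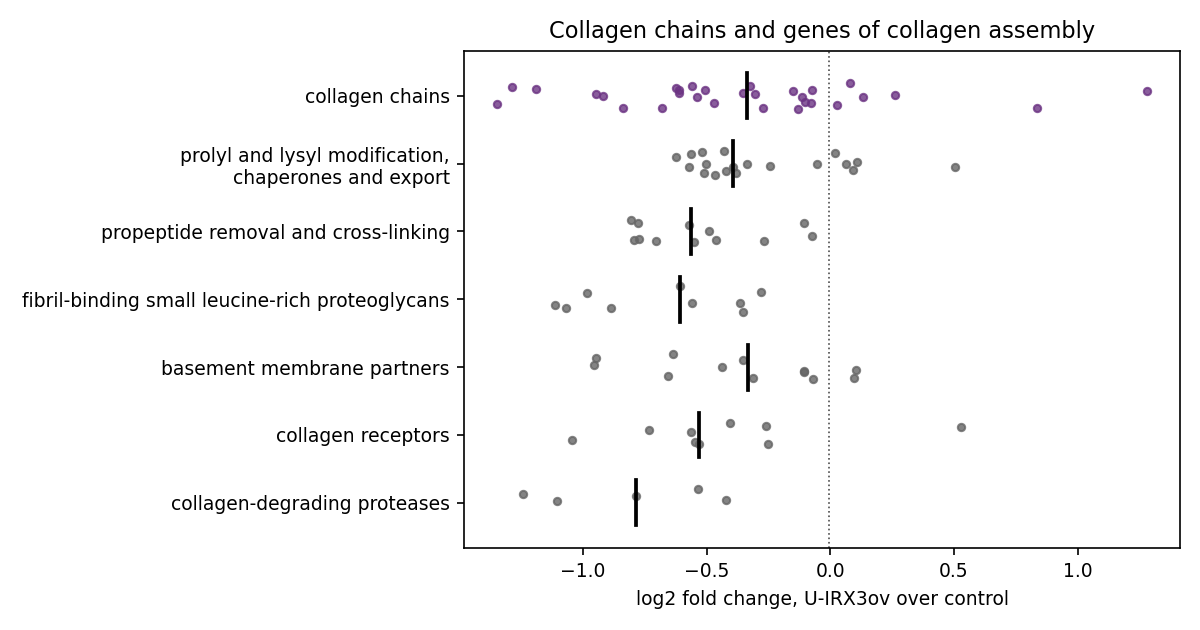
Log2 fold change (U-IRX3ov over control) of each tested collagen chain and of each tested gene in the 6 lists of collagen assembly, with list medians as black bars and the median of all genes as a dotted line. Medians of the lists run from -0.33 for basement membrane partners to -0.78 for proteases.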

How the data were processed

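The authors deposited 1 table of raw whole-number counts per gene for the 6 libraries, whose column names match the library titles, and 0 columns belonged to other samples. Reads were aligned with HISAT2 2.0.4 to mm10, per the submitters' processing notes. How reads were assigned to genes, with which annotation and whether by strand, is not given in the sources used. Low genes were removed with filterByExpr, libraries were scaled by TMM, and U-IRX3ov was tested against control with the quasi-likelihood F test of edgeR 4.0.16 (robust) in R 4.3.3, with Benjamini-Hochberg adjustment over all 14757 genes. Adjusted p-values of genes come from that fit, and the standard error is the log2 fold change divided by the square root of F. CPM are TMM-scaled, and levels per kilobase use the longest principal coding transcript of GENCODE M21 (GRCm38). Shares and ratios were tested by exact permutation with scipy 1.17.1, two-sided. Promoters are RefSeq windows.

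The procedure was tested on simulated counts in which far fewer genes changed than passed here, as many up as down. That setting does not test how the scaling of libraries affects the results. The members and gene lists were chosen with earlier results of these data known. One marker gene of the Schwann cell list is not reported here. Per-library values are given for tested chains, and from each assembly list the 4 genes with the smallest p and those moving against the list are named. Alternatives were other scalings and low-count filters, DESeq2 1.42.0, limma-voom (limma 3.58.1), a 1.2-fold minimum change, a stricter adjusted p (0.01), a replicate block and leaving out each library. Chi-square per degree of freedom between replicates was 2.99 to 5.20, above counting noise, and each library was counted as 1 sample. These values do not tell whether replicates stem from separate animals or cultures. Counts of a library carry counting error only as far as reads are independent molecules.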

Additional observations from a re-analysis of the deposited data

How the results depend on the processing

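The number of chains that fell was 20 under every scaling and low-count filter tried, DESeq2 and limma-voom, and 19 at an adjusted p of 0.01. It was 14 in a test against a 1.2-fold change, and 19 to 20 with each library left out. The number that rose was 1 under the 1.2-fold test and 2 to 3 with each library left out, the third being Col11a2. In the assembly lists 1 gene rose, Plod1, with library totals alone, under the 1.2-fold test and at an adjusted p of 0.01, and 1 to 3 with each library left out. The assembly genes that fell were 52 with library totals alone, 38 under the 1.2-fold test, 48 at an adjusted p of 0.01 and 49 to 51 with each library left out. Over all genes the 1.2-fold test gave 1495 lower and 1121 higher, and DESeq2 gave 2727 and 2690. The ratio of collagen shares, U-IRX3ov to control, ran from 0.689 to 0.708 with each library left out. Of chains that did not pass, Col18a1 turned to -0.0696 and Col20a1 to -0.0143 with library totals alone, and Col2a1 to 0.125 under limma-voom. With each library left out Col20a1 ran from -0.00704 (without control library 1) to 0.174, Col9a3 from -1.036 to -0.0326, Col23a1 from -0.215 to 0.0113 (without control library 1), Col24a1 from -0.308 to 0.0312 (without control library 1) and Col2a1 from -0.444 to 0.624 (without control library 2, and 0.187 without U-IRX3ov library 1). The cause was not tested. The titles give both groups the numbers 1, 2 and 3. Deviations of same-numbered libraries correlated at -0.001, 0.09 and 0.05, and those of the other pairs at -0.074 to 0.023. With 3 libraries a side these values cannot tell whether equal numbers mark a shared origin. With the replicate block 20 chains fell and 2 rose, and 50 assembly genes fell and 3 rose. Low counts limit the family to 30 tested members, since the other 14 had at most 13 counts in a library, and no change is shown for them.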
